A study of Mus musculus with 2 samples.

Results

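The hemicentins Hmcn1 and Hmcn2 are paralogous genes whose peaks are described here. Members were chosen by position, as every peak of N4-acetylcytidine (ac4C) whose summit lay in the RefSeq span of either gene. Of 21192 peaks in the deposited list, 57 met this rule, and all 57 lay in Hmcn2. Hmcn1 held 0. The peaks came from acRIP-seq, in which an antibody against ac4C, an acetylated form of cytidine, pulls down RNA fragments that are then sequenced. The study made 1 ac4C immunoprecipitation library and 1 input library from polyA RNA of wild-type mouse uterus, taken whole at gestational day 4, and asked which uterine mRNAs carry the mark. The labels name neither a strain, nor an age, nor how many animals were pooled. Since no library was replicated, no value below has a replicate check and no p-value was calculated across peaks.

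Hemicentins are giant secreted proteins of the extracellular matrix and belong to the fibulin family. Each begins with a von Willebrand factor A domain, continues with a very long run of immunoglobulin domains and ends with EGF-like repeats and a fibulin-type module. In worms and fish they link neighbouring basement membranes and help to hold epithelia to the tissue beneath. ac4C is written on RNA by the acetyltransferase Nat10 and has been described in mRNA as well as in ribosomal and transfer RNA.

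Hmcn2 (NCBI gene 665700) spans 146 kb on the plus strand of chromosome 2, from 31314255 to 31460738 in GRCm38. Hmcn1 (NCBI gene 545370) lies on the minus strand of chromosome 1, from 150562500 to 150993652, and at 431 kb is 2.94 times as long. These spans hold introns as well as exons, and the peaks carry no strand. All 57 summits lay in Hmcn2 and in no other gene of the table, of any kind.

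The first peak of Hmcn2, chr2:31314310-31314745, is the only one that reaches into the promoter window of its gene in the RefSeq table (GRCm38.p6), and its opening bases are shown beside the stretch at the same distance from the start site of Hmcn1, where no peak was listed. Each line gives 30 bases, 5′ to 3′ on the strand of the gene, with the bases from the table's start site onward in capitals. That start site lies inside the RefSeq span of each gene, so the bases in small letters lie inside the span too. The Hmcn2 bases lie at chr2:31314310-31314339 on the plus strand and the Hmcn1 bases at chr1:150993428-150993457 on the minus strand.
Hmcn2: gaaccccgccgcgcccctgtccGGTGAACC
Hmcn1: gctgtggaaagttgggaggctcAGTCGCTG
Cytidine made up 15 of the 30 bases in Hmcn2 and 5 of the 30 in Hmcn1. Over the whole overlap of peak and window, 72 bases, the Hmcn2 stretch was 43.1% cytidine and the matching Hmcn1 stretch 27.8%. The same stretch in all 32851 promoter windows of the table had a median of 26.4% cytidine (interquartile range 20.8 to 31.9%), and 94.2% of the windows held less than Hmcn2. The motif CNNCNNCNNCNN, in which cytidines are each followed by a pair of free bases, was searched on the strand of the gene. It matched at 1 position in the Hmcn2 stretch and at 0 in that of Hmcn1, and 30.3% of all windows held it. The summit of this peak, at 31314486, lies beyond the window, so these letters describe the edge of the peak and not its centre.

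The paralogues differed in whether they held peaks at all. Hmcn2 carried 3.89 peaks per 10 kb of its span, and Hmcn1 is listed at 0. Of 21900 protein-coding genes, 29.1% held at least 1 summit and 1.26% held at least 10. Only 1 protein-coding gene held more peaks than Hmcn2. Because the peak counts chose the pair, this contrast is a description.

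**Figure D1:**
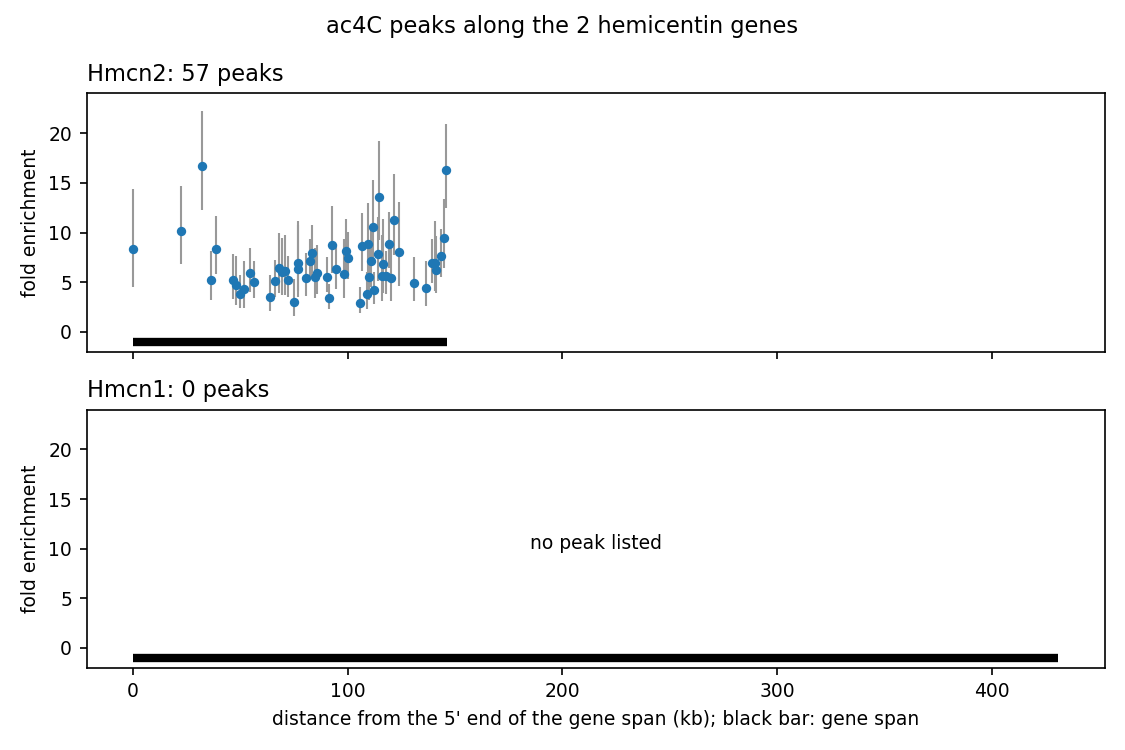
Fold enrichment of each peak (vertical axis; points, with the 95% Poisson interval of the fragment number as bars) against its distance in kb from the 5′ end of the gene span, for Hmcn2 above and Hmcn1 below. The 57 peaks of Hmcn2 reach from 0.231 to 146 kb, with high peaks near 32.2 kb and at the far end, and the longer span of Hmcn1 holds none.

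In Hmcn1 no peak touched the gene by as much as 1 base. The nearest peak towards lower coordinates, in Pla2g4a, the cytosolic phospholipase that releases arachidonic acid, ended 666 kb from the span. The nearest on the other side, in Ivns1abp, began 351 kb away. These peaks were weak, at 4.14-fold on 18 fragments and 4.49-fold on 14 fragments. The stretch without a peak was 1448 kb long, and 398 of the 21165 stretches between neighbouring peaks in the list were longer. Hmcn1 shared it with 6 other whole protein-coding genes, Ptgs2, Pdc, Odr4, Tpr, Prg4 and 3110040M04Rik, none of which held a peak.

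Genes with a span near that of Hmcn1 often held no peak, though spans include introns and the length of the spliced transcript was not matched. Of 448 other protein-coding genes with a span within 1.5 times that of Hmcn1, 46.2% held a peak, with a median of 3 peaks among those that did. The list gives no background for a gene without peaks, so the amount of Hmcn1 RNA was not measured here. An unmodified transcript and a scarce one cannot be told apart. In a whole-organ sample, fewer cells that make a transcript and less of it per cell cannot be told apart either.

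No other protein-coding gene with a span near that of Hmcn2 held as many peaks. Spans include introns, and the length of the spliced transcript was not matched. Of 1619 other genes within 1.5 times its span, 47.6% held a peak, with a median of 2 peaks (interquartile range 1 to 5) among those that did. The highest number in this set was 52, in Hspg2, so 0 of the 1619 reached the 57 of Hmcn2.

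**Figure D2:**
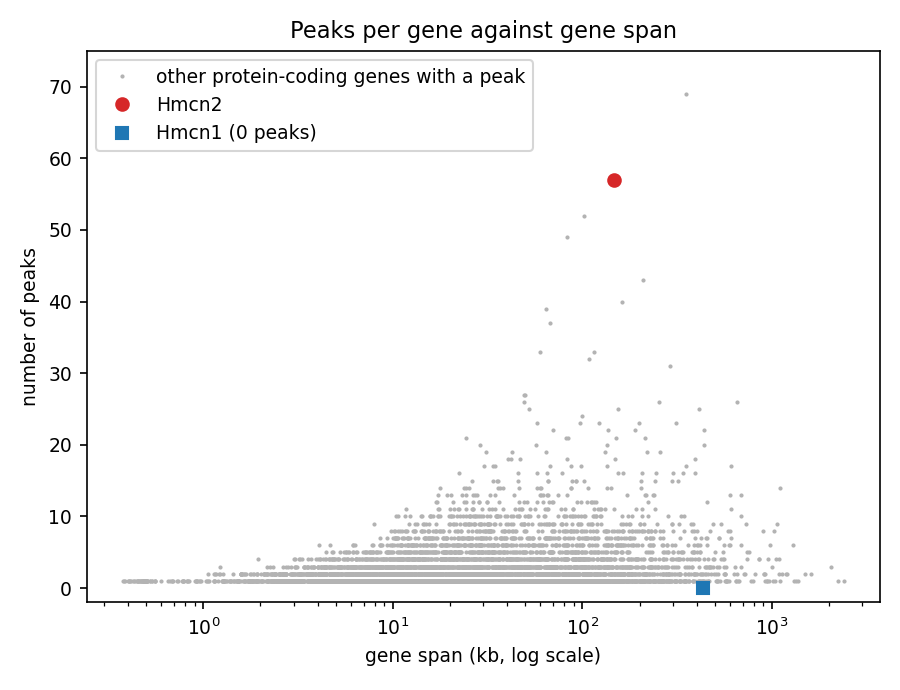
Number of peaks per gene (vertical axis) against gene span in kb (horizontal axis, log scale); each grey point is a protein-coding gene with a peak. Hmcn2 (red circle) stands at 57 peaks and 146 kb, near the upper edge, and Hmcn1 (blue square) at 0 peaks and 431 kb.

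The enrichment of single Hmcn2 peaks was moderate. Fold enrichment is the signal at the summit over the background, as the authors' peak caller gave it. Over the 57 peaks its lowest value was 2.95, its median 6.27 (95% interval 5.55 to 7.09) and its highest 16.7, against a median of 5.58 for all peaks of the list and 5.82 for the 4011 peaks of the other genes with 10 or more peaks. The interval of the Hmcn2 median held the second of these values and, narrowly, the first. At least 8-fold was reached by 14 Hmcn2 peaks (24.6%), against 19.6% of all peaks, and 10 of the 14 lay beyond 50% of the span, as did 40 of all 57.

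Most Hmcn2 peaks lay well inside the significance limit of the list. A −log10 q of at least 10 was reached by 30 Hmcn2 peaks (52.6%), against 45.2% of all peaks and 55.8% of the peaks of the other genes with 10 or more. The largest q of an Hmcn2 peak was 0.0229 and the smallest 1.26e-52. The list itself ends at a q of 0.0499, and summits that missed it are not listed.

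The fragments behind these values were few. The number at the summit ran from 10 to 58 with a median of 24, and the background from 0.438 to 7.88 fragments with a median of 2.63. All peaks of the list had medians of 22 fragments and 2.63 fragments of background. The median interval of a single Hmcn2 peak therefore ran from 65.5% to 147% of its value. In 42 of the 57 peaks that interval held the gene's median of 6.27, in 8 it lay wholly above and in 7 wholly below. These intervals hold the background fixed. With its error included they would be wider, so fewer peaks might lie apart from the median. Most Hmcn2 peaks were thus not told apart in strength at this depth.

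**Figure D3:**
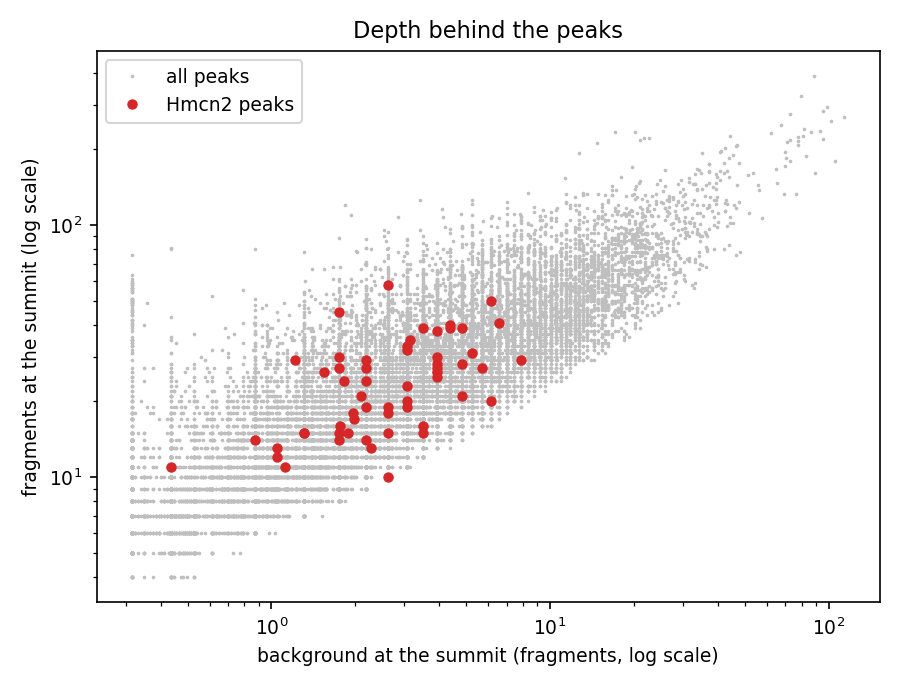
Fragments at the summit (vertical axis, log scale) against background at the summit in fragments (horizontal axis, log scale), for all 21192 peaks in grey and the 57 Hmcn2 peaks in red. The Hmcn2 peaks lie inside the cloud of all peaks, between 10 and 58 fragments, and away from its deepest part.

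The peaks that stood highest lay at opposite parts of the gene. The highest was the third from the 5′ end, chr2:31346271-31346589, at 16.7-fold (95% interval 12.3 to 22.3) on 45 fragments over a background of 1.75. Its summit lay 32.2 kb into the gene. Next was the last peak, chr2:31459865-31460677, at 16.3-fold (12.4 to 21.0) on 58 fragments over 2.63. It rested on more fragments than any other Hmcn2 peak, and its summit lay 689 bp before the 3′ end of the span. The intervals of the pair overlapped almost wholly.

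The other 3 of the 5 highest lay in the 3′ part of the gene, within 10 kb of each other. The peak at chr2:31428785-31429071 stood at 13.5-fold (9.21 to 19.2) on 29 fragments. The peak at chr2:31435566-31436001 stood at 11.3-fold (7.72 to 15.9) on 30 fragments, and that at chr2:31425985-31426249 at 10.6-fold (7.05 to 15.3) on 26 fragments. These 3 intervals overlapped each other, and their backgrounds, 1.22, 1.75 and 1.55 fragments, all lay below the median of the gene. In the whole list the 5 peaks ranked 328, 366, 755, 1415 and 1768 of 21192 by fold enrichment.

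The first peak, which covers the RefSeq start site shown above, had a fold enrichment of 8.35 with a wide interval, 4.51 to 14.4. It rested on 11 fragments over a background of 0.438, the lowest background among the Hmcn2 peaks. Its summit lay 231 bp into the span.

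Peaks were unevenly placed along Hmcn2. The summits reached from one end of the span to the other, over 146 kb, but 17 lay in the first 50% of the span and 40 in the rest. The share in the first 50% was 29.8% (95% Wilson interval 19.5 to 42.7%). That lean towards the 3′ end was no trait of Hmcn2 alone. Among 227 other genes with 10 or more peaks and a strand in the promoter table, the median share was 29.4% (interquartile range 14.6 to 45.8%), and 115 of them had a lower share than Hmcn2.

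Divided into 5 equal stretches, the gene held 2, 9, 14, 19 and 13 summits from its 5′ to its 3′ end. The first stretch, up to 29.3 kb, held the first peak and a peak of 10.2-fold (6.83 to 14.6), chr2:31336230-31336577. In the second, up to 58.6 kb, the highest peak of the gene stood among weaker ones, and the median was 5.17.

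The third stretch, up to 87.9 kb, held 14 peaks. Fold enrichment ran from 3.03 to 7.90 with a median of 5.97. The fourth, up to 117 kb, was the most crowded, with 19 peaks from 2.95 to 13.5-fold and a median of 6.83. The lowest peak of the gene and 2 of the 5 highest lay in it. The last stretch held 13 peaks from 4.41 to 16.3-fold with a median of 6.92. Each of the last 4 stretches held peaks under 5-fold, and every stretch but the third held peaks of at least 8-fold. The order of stronger and weaker peaks along the gene was not tested.

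Peaks in the first 50% of the span had a median of 5.26 (95% interval 4.99 to 6.42, n = 17), and those in the rest a median of 6.85 (5.67 to 7.62, n = 40). The intervals overlapped. Across the 57 peaks the rank correlation of fold enrichment with place along the gene was 0.24, and that of background with place was -0.09. These are descriptions over peaks that share 1 gene and 1 pair of libraries.

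Neighbouring summits of Hmcn2 lay a median of 1495 bp apart (95% interval 1195 to 1972 bp, interquartile range 1062.5 to 2458 bp, 56 distances). Of these distances 10 were under 1000 bp, 36 were under 2000 bp and 7 were over 5000 bp. Among the 30 peaks that reached a −log10 q of 10 the median distance was 2403 bp. The closest pair, chr2:31390786-31391005 and chr2:31391291-31391498, had summits 419 bp apart and similar fold enrichments of 6.92 and 6.34. The most distant pair was the first and the second peak of the gene, 21964 bp apart.

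Summits lay closer together beyond 50% of the span, which largely restates the larger number of summits there. Distances that began at a summit in the first 50% of the span had a median of 2118 bp (n = 17), against 1188 bp in the rest (n = 39). Of the distances over 5000 bp, 4 began in the first 50% and 3 beyond it. The number of exons under each stretch was not used here, so spacing along the spliced transcript was not measured.

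**Figure D4:**
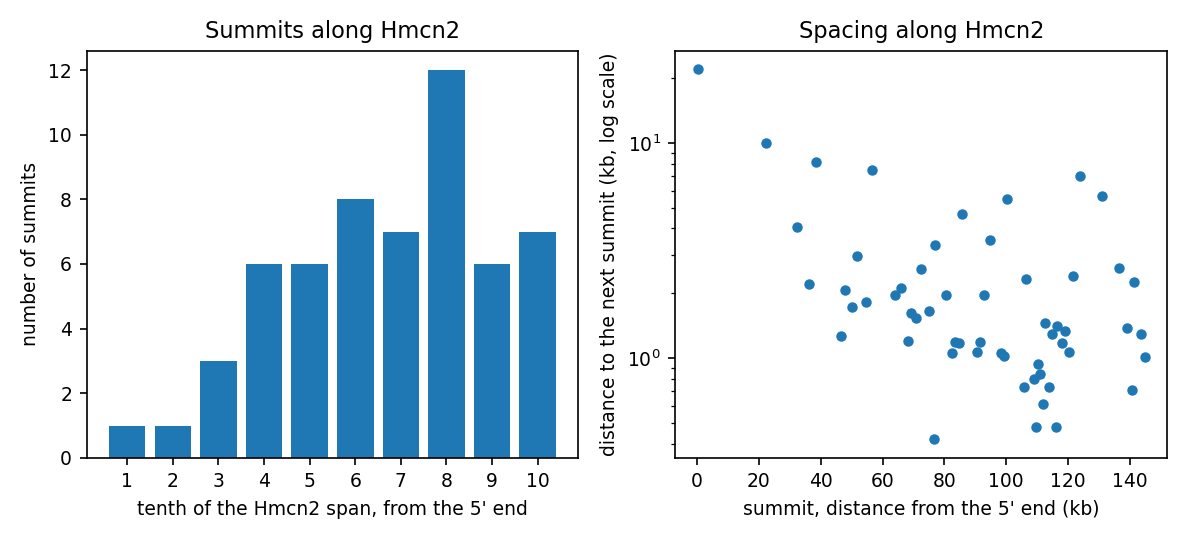
Left, number of summits (vertical axis) in 10 equal parts of the Hmcn2 span from the 5′ end, each 14.6 kb long; right, distance in kb from each summit to the next (vertical axis, log scale) against its place in the gene in kb. Counts rise from 1 in the first part to 12 in the eighth, and the distance after the first summit, 21964 bp, exceeds all others.

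Set against the 276 other genes with 10 or more peaks, the spacing of Hmcn2 was ordinary. Their median spacings had a median of 1811 bp (interquartile range 1226 to 3302 bp), and 106 of them were spaced more closely. Of the same genes 81 had more peaks per 10 kb and 102 had a higher median fold enrichment. In number of peaks, 1 of them ranked above Hmcn2.

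Hmcn2 peaks were of ordinary width for the list. Their width ran from 200 to 813 bp with a median of 287 bp (95% interval 241 to 332 bp), against 315.5 bp for all peaks and 328 bp for the other genes with 10 or more peaks. The first of these values lay inside the interval and so did the second. Of the 276 other genes with 10 or more peaks, 82 had a smaller median width. The smallest width in the list, 200 bp, was found in 5 Hmcn2 peaks (8.77%) and in 7.96% of all peaks. At least 500 bp was reached by 11 (19.3%), against 23.0% of all peaks. Together the 57 peaks covered 19.6 kb, or 13.4% of the span.

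The widest Hmcn2 peak, 813 bp, was the last one, which was also the second highest. Width and height otherwise went together loosely, with a rank correlation of 0.29 over the 57 peaks and 0.22 over all peaks of the list. The highest peak of the gene was 319 bp wide, while the peak of lowest fold enrichment, at 2.95, was 660 bp wide. Fold enrichment fell with background, at a rank correlation of -0.44 in Hmcn2 and -0.47 over all peaks; background is the divisor of fold enrichment, so the measures are not independent.

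**Figure D5:**
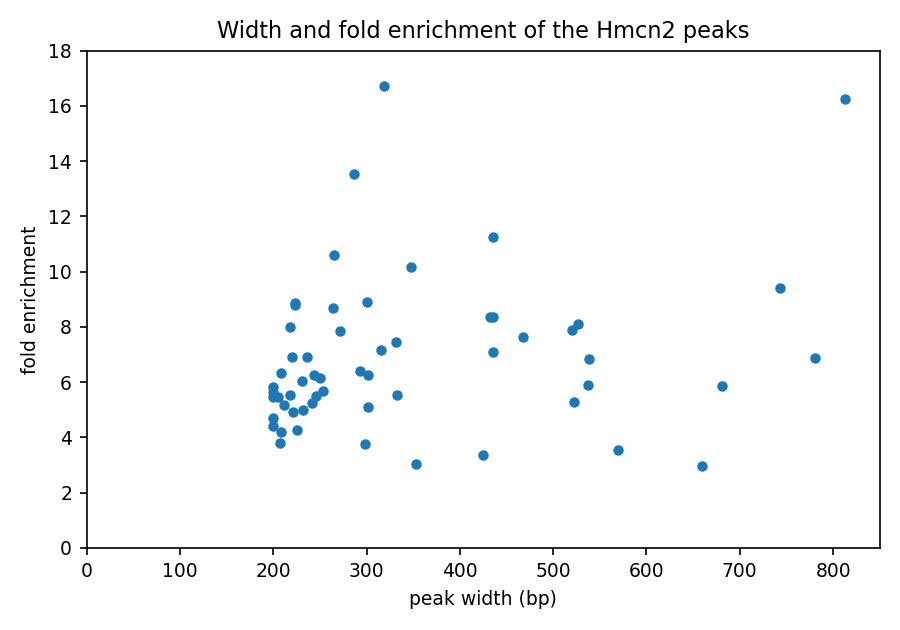
Fold enrichment (vertical axis) against peak width in bp (horizontal axis) for the 57 Hmcn2 peaks, 1 point each. Most points lie below 350 bp and 10-fold; the last peak of the gene, at 813 bp and 16.3-fold, is the 1 peak both over 500 bp wide and over 10-fold.

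Outside Hmcn2 the nearest peak lay closer on the 5′ side than on the 3′ side. On the 5′ side the nearest peak outside the gene lay 21.7 kb away in Ncs1, a neuronal calcium sensor, at 3.44-fold on 16 fragments. Between the first and second peaks of Hmcn2 lay a stretch about as long without a peak, 21484 bp. With the span extended by 100 kb on each side the count rose from 57 to 61. On the 3′ side the next peak lay 152 kb away in Fubp3, at 4.05-fold on 19 fragments. Ass1, the argininosuccinate synthase gene that follows Hmcn2 directly, held 0 peaks.

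The genes most like Hmcn2 were found by their number of peaks, peaks per 10 kb, median fold enrichment and median width, each on a log2 scale in units of its SD over the 277 genes with 10 or more peaks. Nearest was Lrp1, a large endocytic receptor, at a distance of 1.01, against a median distance of 4.73 over 276 genes. Lrp1 held 49 peaks with a median of 5.29-fold. Zmiz1, a transcriptional coactivator, followed at 1.49 with 43 peaks, Gse1 at 1.53 with 69, Ptprs, a receptor tyrosine phosphatase, at 1.62 with 39, and Col18a1, which encodes the basement membrane collagen XVIII, at 1.77 with 33. Hmcn2 had the highest median fold enrichment of these 6 genes, 6.27, with Ptprs next at 5.98. The genes were chosen partly by that value, and 102 of the 276 had a higher median than Hmcn2. For Hmcn1, with 0 peaks, likeness could not be calculated.

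Other genes that build or anchor basement membranes were taken as a list of 30. In it 26 genes held a peak and 10 held 10 or more, with a median of 4 peaks per gene, against 29.1% and 1.26% of all protein-coding genes. Gene length was not matched here either, and 47.6% of other genes within 1.5 times the span of Hmcn2 held a peak. The median fold enrichment at the highest peak was 8.77 over the 26 genes and 6.64 over all genes with a peak, but the 26 held a median of 5.5 peaks and all genes with a peak a median of 2, and the highest of several peaks rises with their number. The most peaks lay in Hspg2, which encodes perlecan, with 52, followed by Col18a1 with 33, the laminin chain Lama5 with 27 and the collagen IV chain Col4a2 with 22. Nid1, a nidogen that links laminin to collagen IV, and Plec, the cytoskeletal linker plectin, held 13 each. Hmcn2 exceeded each of the 30 in number of peaks, though not in density, since Lamb2 held 9.36, Lama5 5.45 and Hspg2 5.10 peaks per 10 kb against its 3.89.

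Among the closest relatives of the hemicentins in that list, the fibulins differed from one another. Fbln1 held 10 peaks at a median of 7.21-fold, Fbln2 held 6 at 4.85-fold, Efemp1 and Efemp2 held 2 each and Fbln7 held 1, while Fbln5 held none. The other genes of the list without a peak were Fras1 and Frem1, of the Fraser complex that anchors embryonic epithelia, and Npnt, the integrin ligand nephronectin. Fras1, with a span of 411 kb, resembled Hmcn1 in being long and without a peak.

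Genes listed for immunoglobulin domains in their proteins, which the hemicentins also carry, were split. The number of such domains in each protein was not checked. Of 19 such genes 12 held a peak and 7 held 10 or more, against 29.1% and 1.26% of all protein-coding genes. Many of the 19 are long, and length was not matched in this comparison. Among other genes within 1.5 times the span of Hmcn2, 47.6% held a peak, and within 1.5 times that of Hmcn1, 46.2%. Hspg2 led with 52 peaks, followed by Ptprs with 39, the cell adhesion gene Sdk2 with 31, the muscle kinase gene Speg with 20 and the myosin light chain kinase gene Mylk with 19. The 7 without a peak were Ttn, Igfn1, Ccdc141, Dscam, Ptprd, Fstl5 and Adamtsl3. The hemicentins fell on opposite sides of this split, Hmcn2 above Hspg2 and Hmcn1 among the genes with none.

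Of 30 marker genes of the cell types in a uterus, 24 held a peak, against 29.1% of all protein-coding genes. No marker of another tissue was listed, so this count could not check the tissue label. Peaks were found in 4 of 5 epithelial, 5 of 5 stromal, 5 of 5 smooth muscle, 4 of 5 endothelial, 4 of 5 mesothelial and 2 of 5 leukocyte markers, with none in Epcam, Tek, Msln, Ptprc, Itgam or Adgre1. A listed peak marks enrichment of fragments at its place, without a strand, and not the level of a transcript. Which cells contributed the Hmcn2 fragments was not tested.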

How the data were processed

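Peaks of 1 ac4C immunoprecipitation library, made beside 1 input library, were read from the 1 deposited narrowPeak list. HISAT2 2.2.1, MACS3 3.0.0a7 and build mm10 are named per the submitters' processing notes, without roles. Per the layout of the list, the authors deposited for each peak a position, a score, a fold enrichment (a ratio), a −log10 p-value and a −log10 q-value. The source of the caller's background was not given in the sources used here, nor were read totals.

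For each peak the whole fragment number n was sought for which (n + 1) / (background + 1) gave the fold enrichment and the Poisson probability of more than n fragments gave the p-value. It was found within a relative miss of 1e-05 for 21192 of 21192 peaks, and no peak had a second match. On 2000 simulated peaks the right number was returned in 100% of cases. Intervals of single peaks are 95% exact Poisson intervals, and those of medians are 95% binomial intervals of order statistics. Both cover counting error, or the spread among peaks, and not the spread between animals. Fragments copied by PCR are not separate molecules.

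Gene spans, introns included, and promoter windows came from RefSeq tables of GRCm38.p6 (mm10). Summits were given to spans, and gene counts over the whole table used summits in exactly 1 protein-coding gene. Analysis used Python 3.11.15, numpy 2.4.6, pandas 2.3.3 and scipy 1.17.1. No exon annotation or whole genome sequence was used here, so the planned placement in exons and UTRs and the cytidine content of whole peaks were not computed.

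All peaks of both genes are counted. Those named are the 5 highest of Hmcn2, the first, the last, the widest and the pairs of neighbouring summits closest and farthest apart. From the gene lists, the 5 genes with most peaks (6 where the fifth place was tied) and those with none are named. The fibulin genes and Lamb2 were named in addition, after their values were seen. One gene of the immunoglobulin list is not reported here. Members and lists were chosen with earlier results of these data known. With 1 library of each kind there was no test, and values are descriptions.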

Additional observations from a re-analysis of the deposited data

How the results depend on the processing

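With 1 immunoprecipitation library and 1 input library, replicate error was not measured, and a gene without a peak has no background value in the list. No paired analysis was possible because each group held 1 library. In 6 alternatives the filter, the assignment of peaks or the joining of neighbours was changed, and an extension of both spans by 100 kb was added after the data were seen. Hmcn1 held 0 peaks under all 7, a count that none of them could have raised. Filters and joining add no peak, no peak touched the span, and the nearest lay 351 kb away. As Hmcn1 had none, the density ratio of the genes and the medians, spacing and share for Hmcn1 gave no value. For Hmcn2, a −log10 q of at least 10 left 30 of 57 peaks, with a median fold enrichment of 7.95 and a median spacing of 2403 bp. A fold enrichment at or above the list median left 36 peaks with a median of 7.53. These shifts follow from removing peaks. The other 5 alternatives gave 48 to 61 peaks. The median width and the share of summits in the first 50% of the span stayed within their 95% intervals under the 6 alternatives run for each. Peaks less than 500 bp apart, joined, gave 48 peaks with a median spacing of 1960 bp and a share of 35.4%.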
